A study of Canis lupus familiaris with 4 samples.

Results

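The 10 genes described here belong to the vascular endothelial growth factor (VEGF) and angiopoietin axis. They were chosen by symbol, and all 10 were found in the table, among 30951 genes in all. They comprise the ligand genes VEGFA, VEGFB, VEGFC and PGF, the receptor genes FLT1 and KDR, the angiopoietin genes ANGPT1 and ANGPT2, and the angiopoietin-like genes ANGPTL2 and ANGPTL4. Each had reads in all 4 libraries, so all 10 passed the filter on low values (reads in at least 2 of 4 libraries), as did 17200 genes of the table.

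The RNA came from mesenchymal stromal cells (MSCs) grown out of adipose tissue, 1 primary cell line from each of 4 dogs, and each line gave 1 library of total RNA. The cells were untreated and had been kept for 48 h in multiwell plates, in DMEM with 10% fetal bovine serum. The labels give 1 group and no second condition, so the data answer how high each gene stood in these cells and how far the dogs differed. The labels used here do not state breed, age, passage number or the oxygen setting of the incubator.

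VEGF ligands are secreted dimers that act on receptor tyrosine kinases of endothelial cells. VEGFA drives the sprouting and permeability of blood vessels through KDR (VEGF receptor 2), whereas FLT1 (VEGF receptor 1) binds VEGFA, VEGFB and placental growth factor (PGF) and, in its soluble form, holds VEGFA away from KDR. VEGFC acts mainly on lymphatic vessels through FLT4. Angiopoietin 1, made by perivascular cells, activates the endothelial receptor TEK and stabilises vessels, and angiopoietin 2 modulates the same receptor, often as its antagonist. The angiopoietin-like proteins share the domain structure of angiopoietins but do not bind TEK. Stromal cells of adipose tissue are a known source of VEGFA, and VEGFA is a classic target of hypoxia-inducible factors (HIFs).

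Reads assigned to genes numbered between 7474011 in dog 4 and 22411268 in dog 1. The cells carried the RNA of their label: all 8 stromal markers (THY1, ENG, PDGFRB, PDGFRA, CD44, ITGB1, COL1A1 and DCN) were above the median detected gene, COL1A1 not with all genes of the table tested. Of 14 endothelial markers none was above it, 6 were below, 3 were neither and 5 were not detected. The endothelial markers PECAM1, TIE1 and EMCN had 0 reads in every dog, which over the 61335851 reads of all libraries allows up to 0.0489 reads per 1000000 assigned reads, set at 3 reads and covering counting error only. Summed over the endothelial list, normalized reads ranged from 262 to 595, and most were of VWF, LYVE1 and ERG. In bulk RNA, fewer cells of a type and less RNA per cell cannot be told apart.

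Levels are given in 2 ways. Normalized reads are reads divided by the size factor of the library. The level is the deposited log2 value minus that of the median detected gene of the same library, which had 139 to 141 normalized reads. A gene with 0 reads stands between -3.97 and -3.94 on this scale, so levels close to that floor, and their SDs, rest on few reads. A gene was called above or below when its level lay more than 1 log2 unit from that median gene (limma, Benjamini-Hochberg adjusted p under 0.05). Of all 17200 genes tested, 33.3% were above and 35.8% below. Every count from a gene list given below stands beside these shares. They cover detected genes only, whereas the lists also count genes that were not detected. Of the 10 VEGF and angiopoietin genes, 5 were above (VEGFA, VEGFB, VEGFC, FLT1 and ANGPTL2), 1 was below (ANGPT2) and 4 were neither (PGF, KDR, ANGPT1 and ANGPTL4). Their median level was 1.26, against -0.02 over all genes tested. Values after ± are SDs over the 4 dogs. No transcript lengths were at hand, so the calls and levels against the median detected gene are not corrected for length and depend on it. No order of level among the 10 genes is read from them. Differences between dogs are read within each gene or from the change in a ratio of 2 genes.

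**Figure D1:**
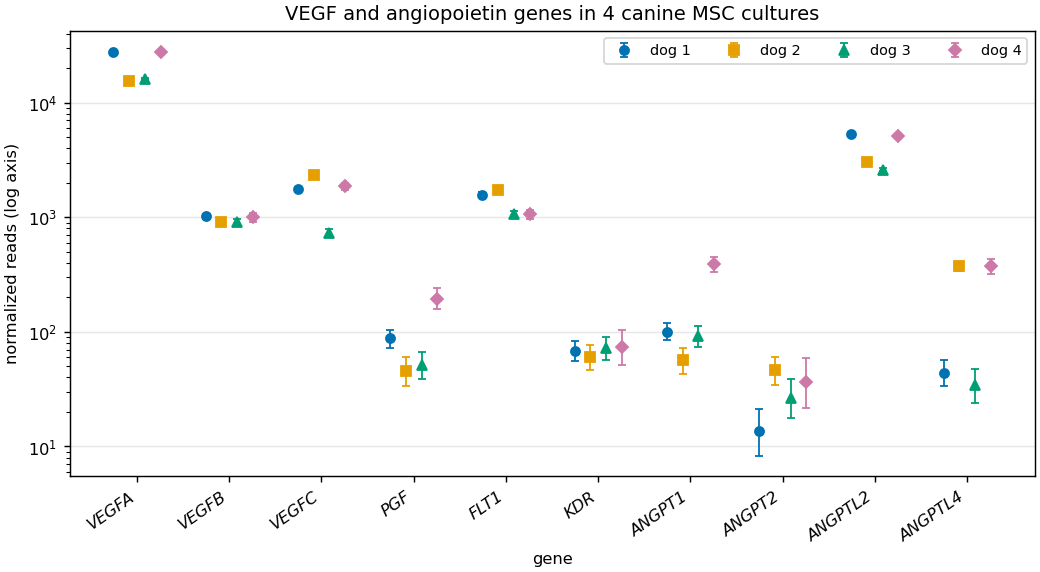
Normalized reads (log axis) of the 10 genes in the libraries of dogs 1 to 4, with exact 95% Poisson intervals that cover counting error only. VEGFA lay between 15552 and 27605 in every dog, KDR between 60.0 and 73.7, and ANGPTL4 at 372 and 373 in dogs 2 and 4 but 43.8 and 34.4 in dogs 1 and 3.

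Among the ligand genes, VEGFA gave most of the reads, with no correction for transcript length. VEGFA (ENSCAFG00000001938) had 27605, 15552, 16078 and 27466 normalized reads in dogs 1 to 4, from 38430, 16854, 16842 and 12665 reads. Dogs 1 and 4 thus lay high and dogs 2 and 3 low, and the highest dog exceeded the lowest 1.78-fold. The level of VEGFA was 7.03 ± 0.48 above the median detected gene, and 4 of 4 dogs were more than 1 unit above it (limma, Benjamini-Hochberg adjusted p = 4.75e-09). It took 0.104% to 0.171% of all reads. Of the reads of the 10 genes together, VEGFA held 73.3%, 64.4%, 74.2% and 73.1% in dogs 1 to 4.

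VEGFB encodes a FLT1 ligand linked to fatty acid handling in tissue with high energy use. It had 1021, 905, 908 and 995 normalized reads in dogs 1 to 4, and its highest dog exceeded its lowest only 1.13-fold. The counting interval of dog 1 (969 to 1076) lies just above those of dogs 2 and 3 (849 to 967), and that of dog 4 (906 to 1091) overlaps all 3. Its level was 2.61 ± 0.10, above the median detected gene in 4 of 4 dogs (limma, Benjamini-Hochberg adjusted p = 3.74e-07). Of the genes tested, 96.1% had a larger SD between dogs.

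VEGFC, the lymphatic growth factor, had 1766, 2339, 730 and 1865 normalized reads in dogs 1 to 4. Dog 3 was low, at 0.402 times the median of the 4 dogs, and the other 3 dogs lay between 0.973 and 1.29 times that median. The level was 3.29 ± 0.73, above in 4 of 4 dogs (limma, Benjamini-Hochberg adjusted p = 6.45e-06), and without dog 3 it was 3.65 with an SD of 0.20. The SD expected for a gene of its level, from limma's trend, was 0.25.

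PGF had 87.6, 45.2, 51.5 and 195 normalized reads in dogs 1 to 4, from 122, 49, 54 and 90 reads. It was highest in dog 4, whose counting interval (157 to 240) lies above those of the other 3 dogs (up to 105). Its level was -0.66 ± 0.81 and did not pass the test, with 1 of 4 dogs above the median detected gene. PGF overlaps EIF2B2 in the dog RefSeq annotation (UU_Cfam_GSD_1.0), and EIF2B2 had 319, 208, 210 and 136 reads in dogs 1 to 4. Whether these genes share reads cannot be told, since the strand setting of the counting is not given. VEGFD, the other lymphatic ligand, held 13, 10, 14 and 1 reads in dogs 1 to 4 and was called below (level -2.74 ± 0.38).

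Of the receptor genes, FLT1 was called above the median detected gene and KDR was not. FLT1 had 1579, 1717, 1076 and 1058 normalized reads in dogs 1 to 4, and the highest dog exceeded the lowest 1.62-fold. Dogs 1 and 2 lay above dogs 3 and 4, which is not the split seen for VEGFA. Its level was 3.07 ± 0.36, above in 4 of 4 dogs (limma, Benjamini-Hochberg adjusted p = 5.00e-07). The table holds 1 value per gene, so soluble and membrane-bound forms of FLT1, like the splice forms of VEGFA, cannot be told apart.

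KDR, the main signalling receptor of VEGFA, had 68.2, 60.0, 72.6 and 73.7 normalized reads in dogs 1 to 4, from 95, 65, 76 and 34 reads. All 4 counting intervals overlap, the widest being that of dog 4 (51.1 to 103). The level was -0.86 ± 0.11, lower than the median detected gene in 4 of 4 dogs but within 1 unit of it in 3, and it did not pass the test. It was below, at -1.69, when the median was taken over genes with reads in all 4 libraries (limma, Benjamini-Hochberg adjusted p = 0.00585). FLT1 had 23.1, 28.6, 14.8 and 14.4 reads per read of KDR in dogs 1 to 4. The ratio between genes depends on their lengths, but its change between dogs, up to 1.99-fold, does not.

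The summed endothelial markers, at 595, 262, 358 and 262 normalized reads in dogs 1 to 4, were higher in dog 1 than in the other dogs, and their part in the FLT1 reads was not tested. VWF alone had 380, 62, 214 and 12 reads and LYVE1 341, 160, 114 and 38. CDH5, the endothelial cadherin, had 5, 2, 5 and 1 reads.

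**Figure D2:**
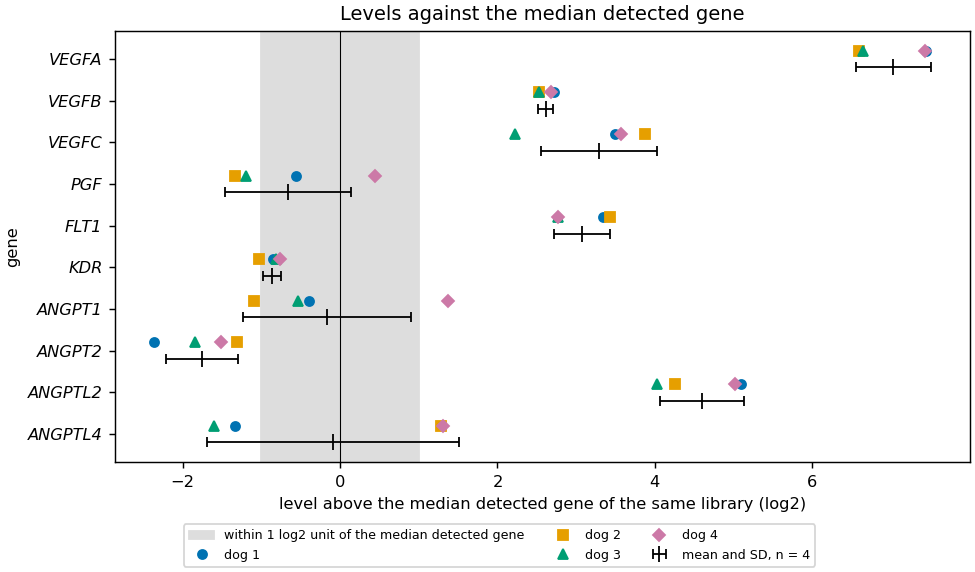
Level of the 10 genes against the median detected gene of the same library (log2) in each dog, with the mean and SD over 4 dogs. The grey band marks the distance of 1 log2 unit: VEGFA, VEGFB, VEGFC, FLT1 and ANGPTL2 lie to its right in every dog, ANGPT2 lies to its left in every dog, and ANGPTL4 falls on both sides.

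Of the angiopoietin genes, ANGPT1 was near the median detected gene and ANGPT2 below it. ANGPT1, the TEK agonist, had 101, 56.3, 91.6 and 390 normalized reads in dogs 1 to 4. Dog 4 stood apart, at 4.06 times the median of the 4 dogs, and its counting interval (335 to 452) lies above those of the other dogs (up to 119). The level was -0.16 ± 1.07 and did not pass the test, with 1 of 4 dogs above the median detected gene, and it was 0.15 without dog 2.

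ANGPT2 had 13.6, 46.1, 26.7 and 36.9 normalized reads in dogs 1 to 4, from only 19, 50, 28 and 17 reads. Dog 1 was lowest and dog 2 highest. The intervals of dog 2 (34.2 to 60.8), dog 3 (17.8 to 38.6) and dog 4 (21.5 to 59.0) all overlap, however. That of dog 1 (8.22 to 21.3) overlaps that of dog 3. The level was -1.76 ± 0.46, below in 4 of 4 dogs (limma, Benjamini-Hochberg adjusted p = 0.0124). This call was lost without dog 1, at -1.55 (limma, Benjamini-Hochberg adjusted p = 0.0654). The gene lies inside MCPH1 in the dog RefSeq annotation (UU_Cfam_GSD_1.0), and MCPH1 itself had 484, 316, 407 and 191 reads. Whether the counting used strand is not stated in the labels, so these overlapping genes may share reads that cannot be told apart.

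The reads of ANGPT2 per read of ANGPT1 came to 0.136, 0.820, 0.292 and 0.0944 in dogs 1 to 4. The ratio was thus highest in dog 2 and lowest in dog 4, a difference of 8.68-fold. Without dog 2 the difference was 3.09-fold. The ratios of dogs 1 and 4 rest on 19 and 17 reads of ANGPT2, and no interval was computed for them, so their order is uncertain. Of the 6 pairs compared, ANGPTL4 per ANGPTL2 alone varied more, by 15.0-fold between dogs 2 and 1 (9.24-fold without dog 1 and 8.95-fold without dog 2). The ratio of VEGFA to VEGFB varied by 1.61-fold. That to VEGFC varied by 3.31-fold, or 1.49-fold without dog 2, and that to PGF by 2.44-fold, or 1.10-fold without dog 4.

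The receptor of the angiopoietins was close to silent. TEK had 12, 7, 5 and 3 reads in dogs 1 to 4 and was below at -2.84 ± 0.14, and its partner TIE1 had 0 reads in every dog. Of the 11 measured genes of angiopoietin receptors and partners, 4 were called above, 3 below and 3 neither, and 1 was not detected, with a median level of -1.16. The integrin chains ITGA5 (7.91 ± 0.53) and ITGB1 (6.99 ± 0.52), which bind angiopoietins and ANGPTL2, were above. The adaptor gene GRB14 (-2.47 ± 1.17) was below, as TEK was. ANGPT4 was at -1.76 ± 1.28 and did not pass the test, but was below without dog 4 (-2.38) and on a log2 scale with a pseudocount of 1 (-2.46).

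Of the angiopoietin-like genes, ANGPTL2 was above the median detected gene in every dog, and ANGPTL4 was high in 2 dogs and low in 2. ANGPTL2 encodes a secreted protein of adipose and stromal cells tied to inflammation and matrix remodelling. It had 5377, 3051, 2606 and 5114 normalized reads in dogs 1 to 4, so dogs 1 and 4 again lay high and dogs 2 and 3 low. The highest dog exceeded the lowest 2.06-fold. Its level was 4.60 ± 0.54, above in 4 of 4 dogs (limma, Benjamini-Hochberg adjusted p = 5.89e-08). ANGPTL2 lies inside RALGPS1 in the same RefSeq annotation, and RALGPS1 had 121, 50, 106 and 24 reads, few beside the 2358 to 7485 reads of ANGPTL2.

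ANGPTL4 encodes a secreted inhibitor of lipoprotein lipase that is induced by fatty acids, by glucocorticoids and by hypoxia. It had 43.8, 372, 34.4 and 373 normalized reads in dogs 1 to 4, from 61, 403, 36 and 172 reads. Dogs 2 and 4 were high and dogs 1 and 3 low, with no values between, and the highest dog exceeded the lowest 10.9-fold. The intervals of the high dogs (319 to 433 and 336 to 410) lie far above those of the low dogs (24.1 to 56.3). The mean level was -0.09 ± 1.60, so the gene was on both sides of the median detected gene: 1.28 and 1.31 in dogs 2 and 4, and -1.34 and -1.61 in dogs 1 and 3.

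**Figure D3:**
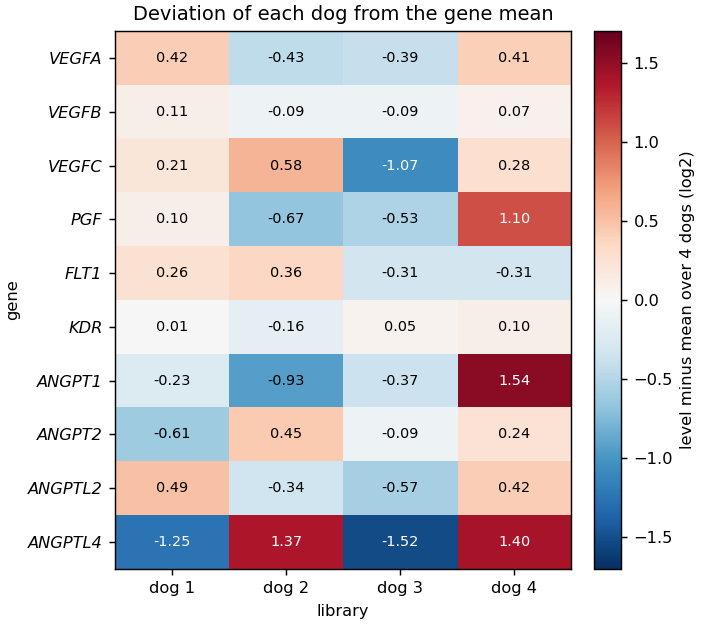
Deviation of each dog from the mean level of the gene over 4 dogs (log2), for the 10 genes. Red is higher and blue lower than the gene's own mean: ANGPTL4 deviates by at least 1.25 in every dog, while VEGFB and KDR stay within 0.16.

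The spread between dogs was set against limma's trend, which gives the SD expected for a gene of its level. ANGPTL4 had an SD of 1.60 where 0.40 was expected, and only 86 of the 17200 genes tested had a larger SD. ANGPT1 (1.07, expected 0.41), PGF (0.81, expected 0.46) and VEGFC (0.73, expected 0.25) followed. Without dog 4 the SD was 0.37 for ANGPT1 and 0.41 for PGF, and without dog 3 it was 0.20 for VEGFC, while that of ANGPTL4 lay between 1.52 and 1.68 without any 1 dog. The SDs of VEGFA (0.48), ANGPTL2 (0.54) and FLT1 (0.36) also exceeded those expected (0.37, 0.26 and 0.25), whereas those of VEGFB, KDR and ANGPT2 did not. An SD over the expected one was found for 7 of the 10 genes and for 44.0% of all genes tested.

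None of the 10 genes passed the test of variability after adjustment (F test against limma's trended prior, Benjamini-Hochberg), nor did any of the 17200 genes (0%), the smallest adjusted p being 0.0796. Without adjustment, 3 of the 10 had a p under 0.05 in that F test (ANGPTL4 0.00265, VEGFC 0.0117 and ANGPT1 0.0223), against 895 of all genes (5.20%). The Benjamini-Hochberg adjusted values of these 3 in the same F test were 0.312, 0.587 and 0.755. With 1 library per dog, differences between dogs, cultures and libraries cannot be told apart.

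The 10 genes did not share 1 order of dogs. The highest dog was dog 4 for PGF, KDR, ANGPT1 and ANGPTL4, dog 1 for VEGFA, VEGFB and ANGPTL2, and dog 2 for VEGFC, FLT1 and ANGPT2. Dog 3 was highest for none of them, whereas it was highest for 23.4% of all detected genes and dog 4 for 36.8%. Likeness was measured as the root mean square difference between 2 genes' deviations from their own means over the 4 dogs. Apart from the even pair VEGFB and KDR (0.09), the most alike were VEGFA and ANGPTL2 (0.11) and then PGF and ANGPT1 (0.31). ANGPTL4 and VEGFA were the least alike (1.44). These are descriptions over 4 points.

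The comparison covered 3689 named genes with at least 100 normalized reads on average over the dogs and an SD of at least 0.3. Among them, the most like VEGFA were SH3BGRL3 (0.04), P4HA1 (0.05) and C15H16orf87 (0.05). P4HA1 encodes a collagen prolyl hydroxylase that is a known HIF target, and it had 7716, 4239, 4565 and 8232 normalized reads in dogs 1 to 4. A pattern this close was common: 234 of these genes lay within 0.2 of VEGFA. Those most like ANGPTL4 were PDK4 (0.45), FAM83H (0.54) and FAM131C (0.55), and none lay within 0.2. PDK4 encodes a kinase that holds back glucose oxidation and is, like ANGPTL4, a known target of peroxisome proliferator-activated receptors (PPARs). It had 4.31, 197, 7.64 and 269 normalized reads in dogs 1 to 4, from only 6 and 8 reads in dogs 1 and 3. Its average thus reached 100 only through dogs 2 and 4. The genes named here were picked for their likeness. That they share the high dogs of VEGFA or ANGPTL4 follows from this choice and is no separate result.

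Genes known to control VEGFA were read beside the 33.3% of all tested genes above and the 35.8% below. Of 13 measured HIF pathway genes, 9 were called above, none below and 3 neither, 1 was not detected, and the median level was 2.80. HIF1A (5.52 ± 0.69) and EPAS1 (4.48 ± 1.01), the oxygen-regulated HIF subunits, were above, and EGLN3 (-0.38 ± 1.01) and VHL (0.48 ± 0.23), which take part in HIF breakdown, were neither. EGLN1 (2.71 ± 0.25), EGLN2 (2.44 ± 0.10) and HIF1AN (2.86 ± 0.10), whose products also restrain HIFs, were above. The 9 genes above thus mix HIF subunits and genes that restrain them. EPAS1 had 6443, 1809, 2075 and 6502 normalized reads in dogs 1 to 4 and HIF1A 8720, 4693, 5282 and 13073. Dogs 1 and 4 were thus high for both, as for VEGFA. In contrast, ARNT (901, 1118, 1019 and 1397), HIF1AN (1037, 1127, 1164 and 1227) and CITED2 (139, 218, 212 and 271) were lowest in dog 1. Over the 12 detected genes of this list, the highest dog was dog 4 for 8, dog 1 for 3 and dog 3 for 1. The lowest was dog 2 for 5, dog 1 for 3, dog 3 for 3 and dog 4 for 1. Dog 4 was highest for 36.8% of all detected genes.

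Of 18 measured HIF target genes other than VEGFA, 13 were above, none below and 5 neither, with a median level of 3.86. Among all genes tested, 33.3% were above and 35.8% below. The glycolytic genes GAPDH (6.81 ± 0.37) and ENO1 (6.39 ± 0.44) were above. CA9 (-0.45 ± 1.81), the carbonic anhydrase used as a hypoxia marker, and PFKFB4 (-0.03 ± 0.29) were neither. The list's median level was 4.20, 3.05, 3.11 and 5.04 in dogs 1 to 4. Dog 4 was the highest dog for 15 of the 18 genes and dog 1 for 3, and the lowest was dog 2 for 14 and dog 3 for 4. Over all detected genes, dog 4 was highest for 36.8% and dog 1 for 22.4%. Dog 2 was lowest for 20.3% of them and dog 3 for 31.1%. CA9 had 40.2, 40.6, 50.6 and 739.5 normalized reads in dogs 1 to 4, so there dog 4 alone was high, unlike VEGFA. The part of HIF activity in the spread of VEGFA was not tested.

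**Figure D4:**
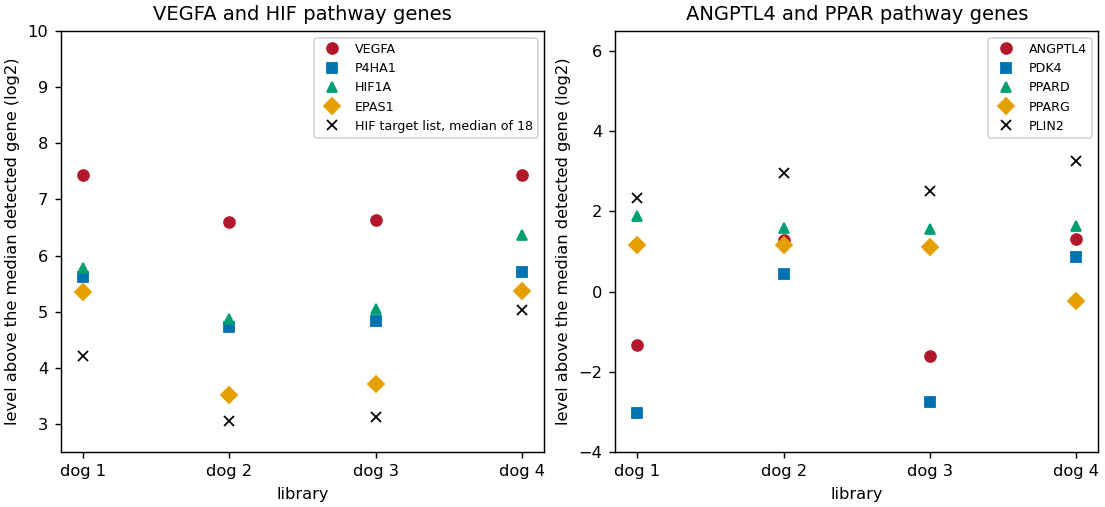
Level against the median detected gene (log2) in each dog. Left: VEGFA with P4HA1, HIF1A, EPAS1 and the median of 18 HIF target genes, all lower in dogs 2 and 3 than in dogs 1 and 4. Right: ANGPTL4 with PDK4, PPARD, PPARG and PLIN2, where ANGPTL4 and PDK4 lie high in dogs 2 and 4. P4HA1 and PDK4 were picked for their likeness to VEGFA and ANGPTL4, so their match follows from the choice.

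Regulators of VEGFA RNA and of the stress response were also mostly above, against 33.3% of all genes tested. Of 10 measured, 6 were above, 1 below and 3 neither, with a median level of 3.54. The stress factor ATF4 (5.60 ± 0.09), which can induce VEGFA, and the RNA-binding protein gene HNRNPL (4.90 ± 0.20) were above. The coactivator gene PPARGC1A (-3.11 ± 0.62) was below, and ZFP36 (0.17 ± 0.64), whose product speeds the decay of VEGFA RNA, was neither. ATF4 varied little, with 7474, 8432, 8004 and 7183 normalized reads in the libraries of dogs 1 to 4.

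The co-receptors and relay genes of VEGF signalling were mostly above the median detected gene, against 33.3% of all genes tested. Of 15 measured, 10 were above, 1 below, 3 neither and 1 not detected, with a median level of 2.08. NRP2 (6.74 ± 0.44), a co-receptor for VEGFC and VEGFA, and the kinase gene AKT1 (4.76 ± 0.20) were above, and NRP1 stood at 3.31 ± 0.13. FLT4, the receptor of VEGFC, was at -0.59 ± 0.27 and did not pass the test, with 108, 74, 122 and 42 reads. Of the adaptor genes, SH2D2A (-3.39 ± 0.78) was below and SHB (-0.63 ± 0.46) neither. NOS3, the endothelial nitric oxide synthase, had 2 reads in dog 2 alone. Among these genes the phosphatase gene PTPRB, whose product restrains TEK, varied most, with 72, 83, 1131 and 211 reads in dogs 1 to 4 (level 0.61 ± 1.88, or -0.11 without dog 3).

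The list of genes that release or process VEGFs held 13 measured genes, the ligand gene VEGFD among them. Of these, 8 were above, 3 below (CCBE1, MMP9 and VEGFD) and 2 not detected, with a median level of 2.04. Among all genes tested, 33.3% were above and 35.8% below. The heparan sulphate proteoglycan gene HSPG2 (8.92 ± 0.30), whose product binds VEGFA in the matrix, and MMP2 (7.40 ± 0.83) were above. The proprotein convertase genes FURIN (4.53 ± 0.20) and PCSK7 (4.42 ± 0.87) and PCSK5 (2.04 ± 0.83), able to cleave pro-VEGFC, were above, but PCSK5 was not called with the median over genes with reads in all 4 libraries (1.22, limma, Benjamini-Hochberg adjusted p = 0.302). CCBE1, whose product promotes the final cleavage of VEGFC, had 3, 3, 5 and 0 reads in dogs 1 to 4 and was called below (-3.37 ± 0.40), and MMP9 was below at -3.00 ± 0.73. ADAMTS1 was above at 1.85 ± 1.22, but not without dog 4 (1.25), with that other median (1.03) or with a prior without a trend. Nor was it called when only genes with reads in all 4 libraries, or every gene of the table, were tested.

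Genes around ANGPTL4 in lipid handling were read next. Lipoprotein lipase (LPL), the enzyme that ANGPTL4 inhibits, had 0, 8, 12 and 0 reads in dogs 1 to 4 and was called below (-3.29 ± 0.76). Of 10 measured genes of the lipase axis, 3 were above, 3 below, 2 neither and 2 not detected, with a median level of -1.41. These shares are near those of all genes tested, 33.3% above and 35.8% below. SEL1L (4.55 ± 0.15), whose product aids lipase folding, and LMF2 (2.42 ± 0.24) were above, and APOC2 (-3.59 ± 0.46) and LIPC (-3.34 ± 0.97) below. In dogs 1 to 4, APOC2 had only 2, 0, 0 and 2 reads and LIPC 0, 1, 0 and 11.

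Of 14 measured PPAR and glucocorticoid genes, 8 were above, 1 below, 3 neither and 2 not detected, with a median level of 1.64. Among all genes tested, 33.3% were above and 35.8% below. NR3C1, the glucocorticoid receptor gene (4.56 ± 0.19), and CPT1A (4.54 ± 0.29), which admits fatty acids to mitochondria, were above, PPARA (-2.90 ± 1.22) was below and PDK4 (-1.12 ± 2.06) neither. Only 4 were above when the median was taken over genes with reads in all 4 libraries. PPARD had 564, 461, 458 and 477 normalized reads in dogs 1 to 4, and PPARG 335, 341, 331 and 115. PPARD was highest in dog 1 and PPARG was low in dog 4 alone, unlike ANGPTL4. The lipid droplet gene PLIN2 had 774, 1234, 906 and 1509 normalized reads, with dogs 2 and 4 again above dogs 1 and 3. CPT1A (3133, 4856, 3209 and 3886) and ACADVL (1308, 1438, 1131 and 1605) had those dogs above too. In contrast, FKBP5 (81.9, 129, 161 and 75.9) and TSC22D3 (464, 629, 492 and 373) were lowest in dog 4. Over the 12 detected genes of this list, the highest dog was dog 1 for 3, dog 2 for 3, dog 3 for 2 and dog 4 for 4. The lowest was dog 1 for 4, dog 3 for 4, dog 4 for 4 and dog 2 for none. Adipocyte markers summed to 13301, 9945, 5672 and 9241 normalized reads, mostly RBP4. Of the adipocyte markers, CIDEC had 0 reads in every dog, and the LEP reads (0, 1, 4 and 37) were highest in dog 4. The part of these genes in the spread of ANGPTL4 was not tested.

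Of 5 other angiopoietin-like genes read here none was above, 3 were below and 2 neither, with a median level of -2.07. ANGPTL1 (0.46 ± 0.51) and ANGPTL6 (-0.70 ± 0.40) were neither, but ANGPTL6 was below (-1.53) with the median over genes with reads in all 4 libraries. ANGPTL5 (-3.57 ± 0.53) and ANGPTL8 (-2.72 ± 0.99) were below. ANGPTL5 had only 0, 0, 1 and 3 reads in dogs 1 to 4, and ANGPTL8 had 1, 19, 1 and 16, with dogs 2 and 4 the higher.

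**Figure D5:**
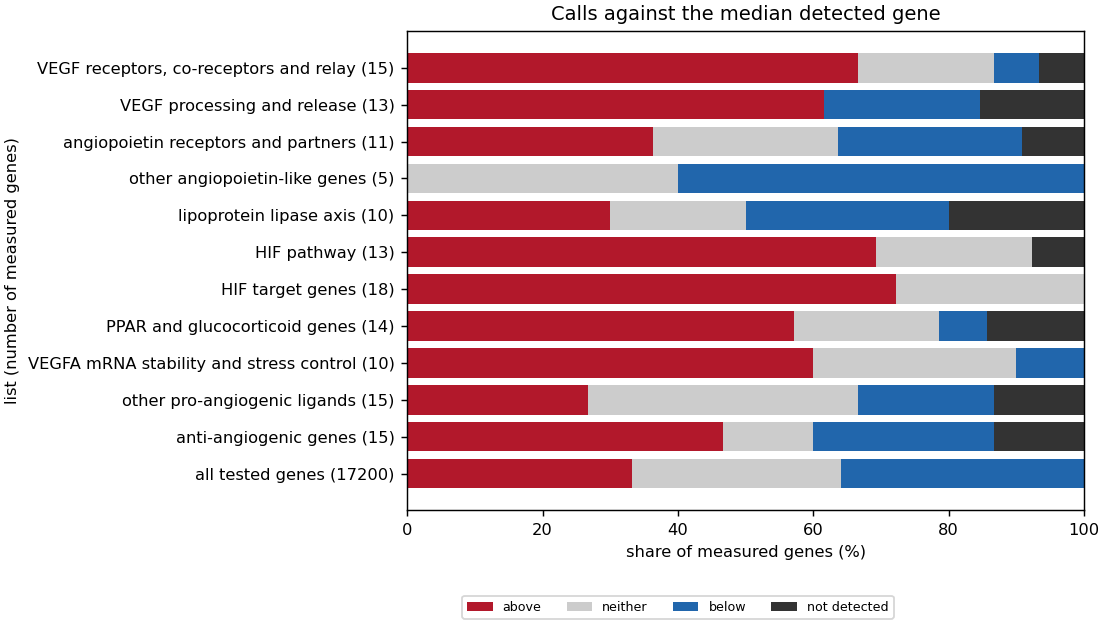
Share of the measured genes of each list that were above, neither, below or not detected against the median detected gene, with the number of measured genes in brackets and all 17200 tested genes, which are all detected, at the bottom. HIF target genes have the largest share above among these lists (13 of 18) and the other angiopoietin-like genes have none.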

How the data were processed

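Libraries of ribosomal RNA-depleted total RNA were made with a stranded kit from 10 ng of RNA of each of 4 canine MSC cultures after 48 h, per the labels' protocols. The submitters' processing notes name the build CanFam3.1 and the tools STAR 2.7.11a, Trimmomatic 0.39, FastQC 0.12.1 and DESeq2. The deposited values are log2 values that the authors made with a variance-stabilizing transformation, per the file headers. Read counter, strand setting and annotation release: not given in the sources used here.

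The transformation was inverted from the value of 0 reads. Values came out as whole reads within 0.01 for 100% of genes with reads, and gave totals of 22411268, 16246965, 15203607 and 7474011 reads for dogs 1 to 4, with size factors of 1.39, 1.08, 1.05 and 0.461. Poisson intervals on reads (95%, exact) cover counting error only.

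The level test was limma 3.58.1 in R 4.3.3, intercept only, distance 1 log2 unit, trended prior, adjusted by Benjamini-Hochberg over 17200 genes. Variability was tested as the ratio of variance to the trended prior (F test). Both tests were tested on simulated data. Dogs count as replicates per the library names. The planned comparison of partner genes per length was replaced by how their read ratio changed between dogs, since no transcript lengths were at hand.

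Members and the 11 pathway lists (147 genes, 138 in the table) were chosen with earlier results of these data known. By rule, the text names all members, the 2 highest and 2 lowest detected genes of each pathway list, and the 3 genes most like VEGFA and like the most variable member. The other genes named, such as NRP1, FLT4, LPL, PPARD, PPARG, PLIN2 and single marker genes, were chosen after their values were seen. Alternatives covered the reference, distance, quantile normalization, a log2 scale with pseudocount 1, filters, prior, thinning to the shallowest library and leaving out each dog.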

Additional observations from a re-analysis of the deposited data

How the results depend on the processing

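The number of VEGF and angiopoietin genes above the median detected gene was 5 in every alternative run. The number below was 1, but 2 with the median over genes with reads in all 4 libraries and 0 at a distance of 1.5, and it ranged from 0 to 1 when 1 dog was left out. Of 130 recomputed member levels 124 kept their direction and call. ANGPT2 lost its call at a distance of 1.5 and without dog 1. Without 1 dog the level of ANGPT1 ranged from -0.68 to 0.15 and that of ANGPTL4 from -0.55 to 0.42, none of them called: ANGPT1 was positive without dog 2 and ANGPTL4 without dog 1 (0.33) or dog 3. Testing only genes with reads in all 4 libraries left 9 pathway list genes below in place of 22, and 2830 of all genes below, since fewer genes were tested. Testing every gene of the table put 19520 below, and the other median put 3729 above and shifted all levels by -0.82, with 5 of 11 angiopoietin partners and 6 of 15 other pro-angiogenic ligands then below. Without 1 dog, 0 to 15 genes passed the variability test (15 without dog 4), and no member did. No paired analysis was possible because the labels give 1 group. The per-length comparisons of partner genes were not run. Reads limit ANGPT2, KDR and PGF, with 114, 270 and 315 reads over all dogs.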

Other observations

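Other ligand genes with known pro-angiogenic activity were mixed. Of 15 measured, 4 were called above, 3 below and 6 neither, and 2 were not detected, with a median level of -1.08. Among all genes tested, 33.3% were above and 35.8% below. The chemokine gene CXCL8 (4.96 ± 1.79) and the growth factor gene HDGF (3.15 ± 0.28) were above, and LEP (-2.81 ± 1.47) and FGF1 (-2.73 ± 0.51) below. The Notch ligand gene DLL4 of sprouting tip cells and PDGFB, which endothelial cells use to recruit pericytes, had 0 reads in every dog. IL6 had 57, 4, 14 and 300 reads in dogs 1 to 4, a level of -1.21 ± 2.30 that was not called but was below without dog 4 (-2.31). EDN1, the endothelin gene, had 100, 103, 56 and 220 reads.

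Genes whose products restrain vessel growth included genes far above the median detected gene. Of 15 measured genes listed as such, 7 were above, 4 below, 2 neither and 2 not detected, with a median level of 1.09. The 7 include VASH2 (6.10 ± 0.45), for which a restraining role is not established. The thrombospondin genes THBS2 (9.55 ± 0.60) and THBS1 (8.88 ± 0.93) were above, and COL4A3 (-3.64 ± 0.20) and SEMA3A (-2.46 ± 1.71) below. COL4A3 had only 1, 1, 1 and 0 reads in dogs 1 to 4. SEMA3A had 4, 9, 147 and 0 reads in dogs 1 to 4, so nearly all came from dog 3, and its call was lost without dog 1 or 4 and with all genes of the table tested. The count below ranged from 1 to 4 when 1 dog was left out. TIMP3, whose product also blocks VEGFA binding to KDR, had 2848, 608, 1201 and 183 reads, a level of 2.45 ± 1.03, which was not called above with the median over genes with reads in all 4 libraries (1.63). These lists overlap in function and no list was tested against the rest. DLL4, PDGFB, IL6, EDN1, TIMP3 and VASH2 were chosen after their values were seen.

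Of the 7 pericyte markers, 2 were above (CSPG4 and NOTCH3), 2 below, 2 neither and 1 not detected (RGS5, 0 reads in every dog). Of 7 leukocyte markers 1 was above (CD79A), 1 below, 1 neither and 4 not detected, and PTPRC had 5 reads in dog 3 alone. Of 5 adipocyte markers 2 were above (RBP4 and PNPLA2), 2 below and 1 not detected. PNPLA2 was not called with the median over genes with reads in all 4 libraries (0.77), and 1 adipocyte marker was above at a distance of 1.5.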
